A study of Homo sapiens with 8 samples.

Results

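Panobinostat, an inhibitor of histone deacetylases, was given together with OTX015, an inhibitor of the BET bromodomain proteins, and the arrays of that combination were compared with arrays of OTX015 alone. The arrays were chosen by their titles, OTX015+panobinostat replicates 1 and 2 against OTX015 replicates 1 and 2, and they made up 4 of the 8 arrays of the series. All arrays came from NCH644, an established line of stem-like glioblastoma cells kept as neurospheres, and RNA was collected 24 h after the addition. Combination cultures had received 5 µM OTX015 and 5 µM panobinostat, and OTX015 cultures 5 µM OTX015, so both compared groups carried the BET inhibitor. The remaining 4 arrays were panobinostat at 5 µM and its vehicle DMSO, and they entered wherever the change made by panobinostat without OTX015 is given. The labels state a single time of addition, so OTX015 was not present before panobinostat. They name no genetic change in any group, and every value describes this 1 line at 1 dose and 1 time.

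BET proteins are readers of acetylated histones: their bromodomains bind acetyl-lysine at promoters and enhancers, where they help to bring P-TEFb, the kinase that releases paused RNA polymerase II. Histone deacetylases remove acetyl groups from histones and other proteins, and their inhibition raises acetylation across chromatin. In glioma stem-like cells, both classes of inhibitor are known for their effects on proliferation genes and on the transcription factors that hold the cells in a progenitor state.

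Each gene had 1 probe set and 1 log2 value per array from RMA, the robust multi-array average, and the medians of the 8 arrays lay between 3.869 and 4.004. Duplicate arrays correlated across genes with Pearson's r between 0.9903 and 0.993. The series text calls them biological duplicates without saying whether they were separate cultures, so p-values measure the spread between these arrays, which may be technical. A background level of 3.03 was set from 352 olfactory receptor genes, which are silent in most tissues, as the 95th percentile of their means per group. The labelled cell type was checked on the DMSO arrays, where the progenitor and glioma markers SOX2, OLIG2 and NES averaged 10.10, 9.90 and 8.44. GFAP, the astrocyte filament, averaged 3.57, and the leukocyte marker PTPRC averaged 1.18, which is under background.

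Panobinostat on top of OTX015 changed 6734 of 22458 genes (30.0%) at a Benjamini-Hochberg adjusted p under 0.05 in limma, 3442 of them higher (15.3%) and 3292 lower (14.7%). The median change over all genes was 0.03 on the log2 scale. Changes of at least 1 on the log2 scale were found for 1300 higher and 1412 lower genes, and changes of at least 3 for 104 higher and 80 lower genes. When every array was centred on its own median the median change became -0.07, and 41.0% instead of 51.1% of the called genes were higher, so directions of small changes depend on the scaling. Of the called genes, 961 (14.3%) averaged under background in either group: 650 of the higher genes did so with OTX015, and 311 of the lower genes did so in the combination. In these bulk samples, fewer cells of a type and less RNA per cell cannot be told apart. Every change below is combination minus OTX015 on the log2 scale unless another contrast is named, with 2 arrays a group. For this contrast, counts of higher and lower list members stand against 15.3% and 14.7% of all genes. These shares varied with abundance: of 5 equal bins by DMSO level, the highest had 15.5% higher and 38.0% lower. The lowest bin had 3.92% higher and 0.913% lower. The lists were not matched for level, so part of an excess in a list of abundant genes may go with level, which was not tested.

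DHRS2 and MIR7-3HG were near background with OTX015 and abundant in the combination. DHRS2, a mitochondrial dehydrogenase/reductase long known to respond to HDAC inhibitors, had 10.49 and 10.59 in combination arrays, against 3.73 and 4.18 in OTX015 arrays. The duplicates lay close together, the groups did not overlap, and the change was 6.58 ± 0.27 (SE, adjusted p = 2.29e-06), or 95.7-fold. MIR7-3HG, the host transcript of the microRNA gene MIR7-3, had 11.45 and 11.46 in combination arrays, against 3.49 and 3.62 in OTX015 arrays, a change of 7.90 ± 0.14 (SE, adjusted p = 1.09e-07). MIR7-3 itself had 6.14 and 6.40 in combination arrays, against 1.33 and 1.59 in OTX015 arrays. The OTX015 arrays were under background and the combination arrays well above it, which gave a level at least 9.47-fold higher (adjusted p = 1.67e-06). Such "at least" values are given here and later wherever a group mean was under background. Arrays of that group under background were set to the background level, and the fold was taken between the means of the 2 groups. MIR616, a microRNA gene of chromosome 12, had 6.60 and 7.38 in combination arrays, against 2.46 and 2.24 in OTX015 arrays, at least 15.6-fold higher (adjusted p = 5.98e-06). These microRNA genes were picked after their values were seen, and the array measures their transcripts rather than the mature forms. The mature sequences are shown because the seed, bases 2 to 8 in capitals, sets which messages a microRNA can pair with, and the 3 seeds differ. They are RefSeq entries on GRCh38.p14, at chr19:4770700-4770723 (plus strand) for miR-7-5p, and at chr12:57519183-57519204 and chr12:57519223-57519244 (minus strand) for miR-616-3p and miR-616-5p:
hsa-miR-7-5p: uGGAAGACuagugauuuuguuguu
hsa-miR-616-3p: aGUCAUUGgaggguuugagcag
hsa-miR-616-5p: aCUCAAAAcccuucagugacuu

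The largest changes were ranked among called genes whose arrays do not overlap between the groups. MicroRNA genes and their host transcripts, other small RNAs, uncharacterised loci, FAM-numbered genes, and antisense and readthrough symbols were left out. The 12 largest rises by this rule were DHRS2 and 11 others, among them secreted proteins, enzymes and neuroendocrine genes. PAEP, the secreted glycoprotein glycodelin, had 8.75 and 8.83 in combination arrays, against 2.41 and 2.25 in OTX015 arrays, at least 54.3-fold higher (adjusted p = 1.18e-07). MMP1, the interstitial collagenase, had 7.70 and 8.30 in combination arrays, against 2.152 and 1.79 in OTX015 arrays, at least 31.3-fold higher (adjusted p = 2.9e-06). Both were under background on each OTX015 array. DCLK1, a microtubule-associated doublecortin-like kinase, had 7.11 and 6.96 in combination arrays, against 2.06 and 1.43 in OTX015 arrays, at least 16.1-fold higher (adjusted p = 2.49e-06). PTPRN, a receptor phosphatase-like protein of dense-core secretory vesicles, had 8.51 and 8.34 in combination arrays, against 3.56 and 3.597 in OTX015 arrays, a change of 4.85 ± 0.19 (SE, adjusted p = 2.28e-06). DDIT3, which encodes the stress transcription factor CHOP, had 8.77 and 8.64 in combination arrays, against 3.91 and 3.71 in OTX015 arrays, a change of 4.89 ± 0.15 (SE, adjusted p = 1.32e-06). That no array of one group overlapped the other in these genes was fixed by the choice. The others were RPL3L, a muscle paralogue of a ribosomal protein (5.86), the fatty acid hydroxylase CYP4F2 (at least 16.3-fold), the small GTPase ARL14 (at least 11.5-fold) and the pseudogene CEP192P1 (at least 21.3-fold). RFPL4AL1 (at least 62.5-fold) and USP17L5 (5.90) belong to families of near-identical copies, so their signal cannot be assigned to 1 copy.

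**Figure D1:**
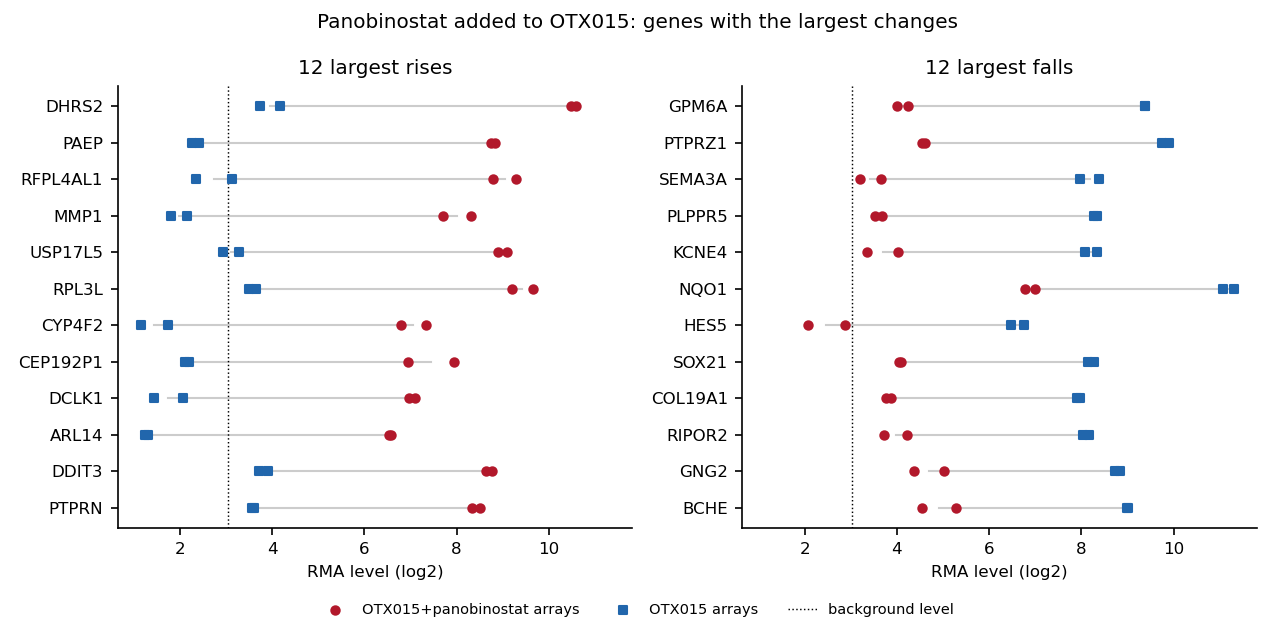
RMA levels (log2) of the 12 genes that rose most and the 12 that fell most, with red circles for the 2 OTX015+panobinostat arrays, blue squares for the 2 OTX015 arrays, a grey line between group means and a dotted line at the background level of 3.03. The genes were picked among those without overlapping groups. The OTX015 arrays of the rising genes lie near or under background, and most falling genes have OTX015 levels of about 8 or more.

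The largest falls, picked by the same rule, included surface, guidance and developmental genes of neural cells. GPM6A, a neural membrane glycoprotein, had 4.0 and 4.25 in combination arrays, against 9.38 and 9.38 in OTX015 arrays, a change of -5.26 ± 0.17 (SE, adjusted p = 1.35e-06). PTPRZ1, a receptor phosphatase of oligodendrocyte precursors and glioma cells, had 4.61 and 4.55 in combination arrays, against 9.75 and 9.91 in OTX015 arrays, a change of -5.25 ± 0.12 (SE, adjusted p = 2.92e-07). Both genes were abundant with OTX015 and were 38.2-fold and 38.1-fold lower in the combination. SEMA3A, a secreted axon guidance cue, had 3.19 and 3.65 in combination arrays, against 7.98 and 8.39 in OTX015 arrays, a change of -4.76 ± 0.19 (SE, adjusted p = 2.28e-06). NQO1, a quinone reductase and a classic target of the antioxidant factor NRF2, had 6.999 and 6.78 in combination arrays, against 11.30 and 11.08 in OTX015 arrays, a change of -4.30 ± 0.17 (SE, adjusted p = 2.12e-06). HES5, a transcriptional repressor and Notch target, had 2.07 and 2.87 in combination arrays, against 6.48 and 6.75 in OTX015 arrays, which put both combination arrays under background and made it at least 12-fold lower (adjusted p = 2.35e-05). SOX21, a transcription factor of neural progenitors, fell by 4.14. The other 6 were PLPPR5, a neuronal membrane protein of the phospholipid phosphatase-related family (-4.71), the potassium channel subunit KCNE4 (-4.52), the collagen COL19A1 (-4.13), RIPOR2 (-4.12), the G protein subunit GNG2 (-4.10) and the cholinesterase BCHE (-4.09).

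Among the targets of OTX015, BRD2 and BRD3 had small changes. BRD2, a BET protein, had 10.72 and 10.72 in combination arrays, against 10.09 and 10.004 in OTX015 arrays, a change of 0.67 ± 0.13 (SE, adjusted p = 0.00458). BRD3, another BET protein, had 6.21 and 6.04 in combination arrays, against 6.75 and 6.58 in OTX015 arrays, a change of -0.54 ± 0.13 (SE, adjusted p = 0.0148). Their arrays were separate between groups, in opposite directions, although the call for BRD3 was lost without OTX015 replicate 1 (adjusted p = 0.0943) or combination replicate 2 (adjusted p = 0.0894). Over 14 BET and P-TEFb genes, 6 rose, 3 fell and 5 were not called, with a median change of 0.23. CDK9, the kinase of P-TEFb, rose by 1.15, and its cyclin partner CCNT2 fell by 1.02. The elongation factors ELL2 and SUPT5H rose by 1.04 and 0.86. HEXIM1, an inhibitor of P-TEFb whose transcript is used as a marker of BET inhibition, had 7.86 and 8.24 in combination arrays, against 7.39 and 7.20 in OTX015 arrays, a change of 0.76 ± 0.17 (SE, adjusted p = 0.00909). That call was lost without OTX015 replicate 2 (adjusted p = 0.0686) or combination replicate 2 (adjusted p = 0.0618).

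Of 23 histone deacetylases, sirtuins and corepressor subunits, 11 rose and 5 fell, with a median change of 0.41. HDAC3, the catalytic subunit of the NCOR complexes, had 8.80 and 8.70 in combination arrays, against 7.61 and 7.57 in OTX015 arrays, a change of 1.16 ± 0.12 (SE, adjusted p = 0.000157). HDAC1 and HDAC2, close relatives that share corepressor complexes, moved apart: HDAC1 rose by 0.68 and HDAC2 fell by 0.54. HDAC6, the cytoplasmic tubulin deacetylase, rose by 0.79, and HDAC11 had a change of 0.17 that was not called (adjusted p = 0.394). The largest changes of the list were rises of the corepressor scaffold SIN3A (2.08), of HDAC10 (1.69) and of the nucleolar deacetylase SIRT7 (1.57), and a fall of SIRT1 (-1.33). The count of lower members was 3 without OTX015 replicate 2 or when either combination array was left out.

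MYC, the growth-promoting transcription factor whose transcript is a known target of BET inhibitors, fell when panobinostat was added. It had 5.53 and 5.49 in combination arrays, against 8.08 and 8.04 in OTX015 arrays, a change of -2.55 ± 0.12 (SE, adjusted p = 3.05e-06), or 5.85-fold lower. Duplicates differed little, and the 2 groups were far apart. Of 12 genes of the MYC network, 4 rose and 3 fell. MNT and MXD1, which encode repressors that pair with MAX, rose by 1.14 and 0.95, while MXD3 was at least 1.82-fold lower, a call lost without OTX015 replicate 2 (adjusted p = 0.199) or when either combination array was left out (0.084 and 0.134). MYCN had a change of -0.38 that was not called (adjusted p = 0.109) and was called after centring (adjusted p = 0.0437). The 45 MYC targets of ribosome biogenesis and growth moved in both directions: 7 rose, 10 fell and 28 were not called, with a median change of -0.17. HSPD1, a mitochondrial chaperonin, fell by 1.66 and the pseudouridine synthase PUS7 by 1.21, whereas the polyamine enzyme ODC1 rose by 1.59 and the transferrin receptor TFRC by 1.08. After centring, 16 of these targets were lower. Of 35 cytosolic ribosomal protein genes, 31 were not called, 1 rose (RPL37) and 3 fell (RPS23, RPL22 and RPL14). RPL37 lost its call after centring, and both RPL37 and RPL14 lost it when each of the 4 compared arrays was left out in turn.

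**Figure D2:**
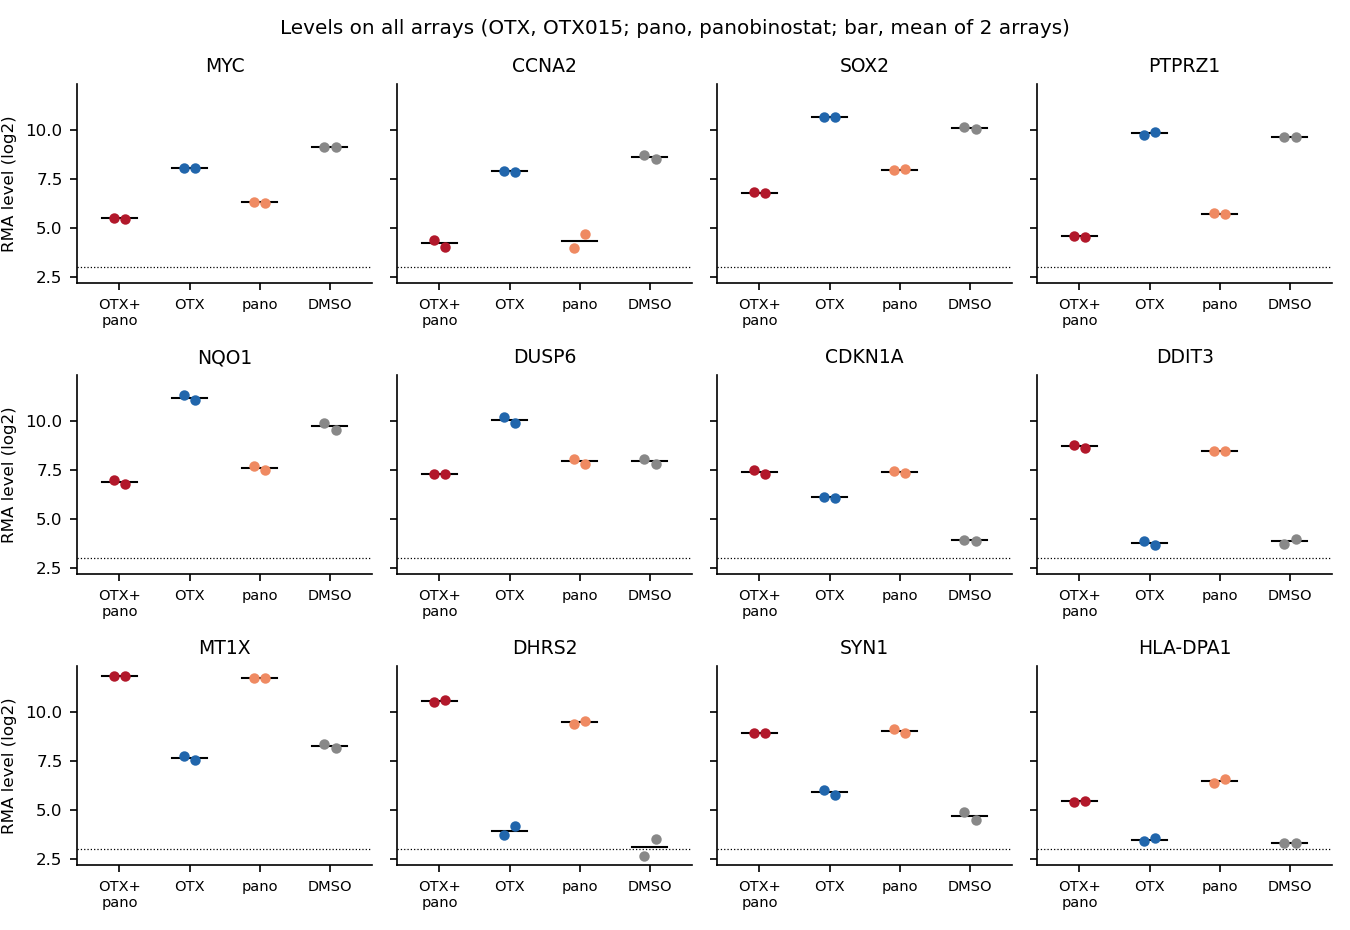
RMA levels (log2) of 12 genes on all 8 arrays, with OTX015+panobinostat left of OTX015 and panobinostat left of DMSO, a bar at each mean of 2 arrays and a dotted line at the background level of 3.03. MYC, CCNA2, SOX2, PTPRZ1 and NQO1 are lower in the combination than with OTX015, and DDIT3, MT1X, DHRS2, SYN1 and HLA-DPA1 are higher.

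Of the 50 lists, the one with the largest share of called members was a cell cycle list. All 57 measured genes of the G2/M and mitosis list were lower in the combination, against 14.7% of all genes, with a median change of -2.29. This held without each of the 4 arrays in turn. CDK1, the kinase that drives entry into mitosis, had 2.52 and 2.16 in combination arrays, against 5.99 and 6.16 in OTX015 arrays, at least 8.24-fold lower (adjusted p = 6.32e-06). CCNA2, the A-type cyclin of S phase and G2, had 4.39 and 4.06 in combination arrays, against 7.91 and 7.88 in OTX015 arrays, a change of -3.67 ± 0.23 (SE, adjusted p = 1.11e-05). CENPF, a kinetochore protein, had 4.98 and 5.23 in combination arrays, against 8.47 and 8.67 in OTX015 arrays, a change of -3.47 ± 0.18 (SE, adjusted p = 4.71e-06). All combination arrays of these 3 genes were below all OTX015 arrays. FOXM1, the transcription factor of the G2/M program, fell by 3.39, and the survivin gene BIRC5 fell by 3.29. MKI67, the proliferation antigen, was looked at after its values were seen and had 4.73 and 4.78 in combination arrays, against 8.62 and 8.54 in OTX015 arrays. Summed over the list after undoing the log, the level was 2110 and 2150 in the combination, against 9730 and 10600 with OTX015.

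The promoters of 2 of these genes are shown because the list moved together and G2/M genes are known to share 2 promoter elements. The CCAAT box, CCAAT on either strand, stood in 33 of 48 G2/M promoters with a RefSeq entry (68.8%), against 35.7% of 27305 promoters, in windows from 250 bases before to 50 after the start. The cell cycle homology region, TTTGAA or TTCGAA on either strand, stood in 34 of 48 (70.8%), against 16.6% of all promoters. The motifs can overlap only at their end letters, and each was counted on its own. In the 250 bases before the start alone, the cell cycle homology region stood in 24 of the 48 G2/M promoters, against 14.6% of all promoters. The last 150 bases before the start of CCNA2 (chr4:121823884-121824033, minus strand) and CENPF (chr1:214603045-214603194, plus strand) are given from RefSeq on GRCh38.p14, 5′ to 3′, with CCAAT or its reverse complement in capitals:
CCNA2: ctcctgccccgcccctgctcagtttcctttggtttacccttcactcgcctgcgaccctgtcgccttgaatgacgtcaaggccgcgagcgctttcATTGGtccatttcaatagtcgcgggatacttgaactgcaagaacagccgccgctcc
CENPF: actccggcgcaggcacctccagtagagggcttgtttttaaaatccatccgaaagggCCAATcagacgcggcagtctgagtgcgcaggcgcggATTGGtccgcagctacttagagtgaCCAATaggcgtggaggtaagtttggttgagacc
The 2 windows shown were picked among those that hold the CCAAT box, so its presence in them was fixed by the choice. A match describes the letters of the window and does not mark a bound site.

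Genes of G1/S and DNA replication also fell, though less uniformly: 40 of 54 were lower and 1 was higher, the kinase gene CDC7, with a median change of -0.94. CDC7 was not called without OTX015 replicate 2 or combination replicate 1. TYMS, thymidylate synthase, had 5.51 and 5.63 in combination arrays, against 9.33 and 9.34 in OTX015 arrays, a change of -3.77 ± 0.13 (SE, adjusted p = 1.67e-06). CCND1, cyclin D1, had 4.45 and 4.69 in combination arrays, against 8.08 and 7.94 in OTX015 arrays, a change of -3.44 ± 0.17 (SE, adjusted p = 3.55e-06). Its relative CCND2 fell by 3.11, and the ribonucleotide reductase subunit RRM2 fell by 2.56. Of 29 genes of homologous recombination and the Fanconi pathway, 14 fell and 3 rose (RAD51B, FANCF and RAD50), and the largest falls were FANCI (-2.64), RAD51AP1 (-1.87) and EXO1 (-1.68). The 7 CDK inhibitor genes split. CDKN1A, which encodes p21, had 7.49 and 7.28 in combination arrays, against 6.14 and 6.10 in OTX015 arrays, a change of 1.27 ± 0.13 (SE, adjusted p = 0.000154). CDKN1C rose by 1.26, whereas CDKN1B, which encodes p27, fell by 2.31 and CDKN2A by 2.25.

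**Figure D3:**
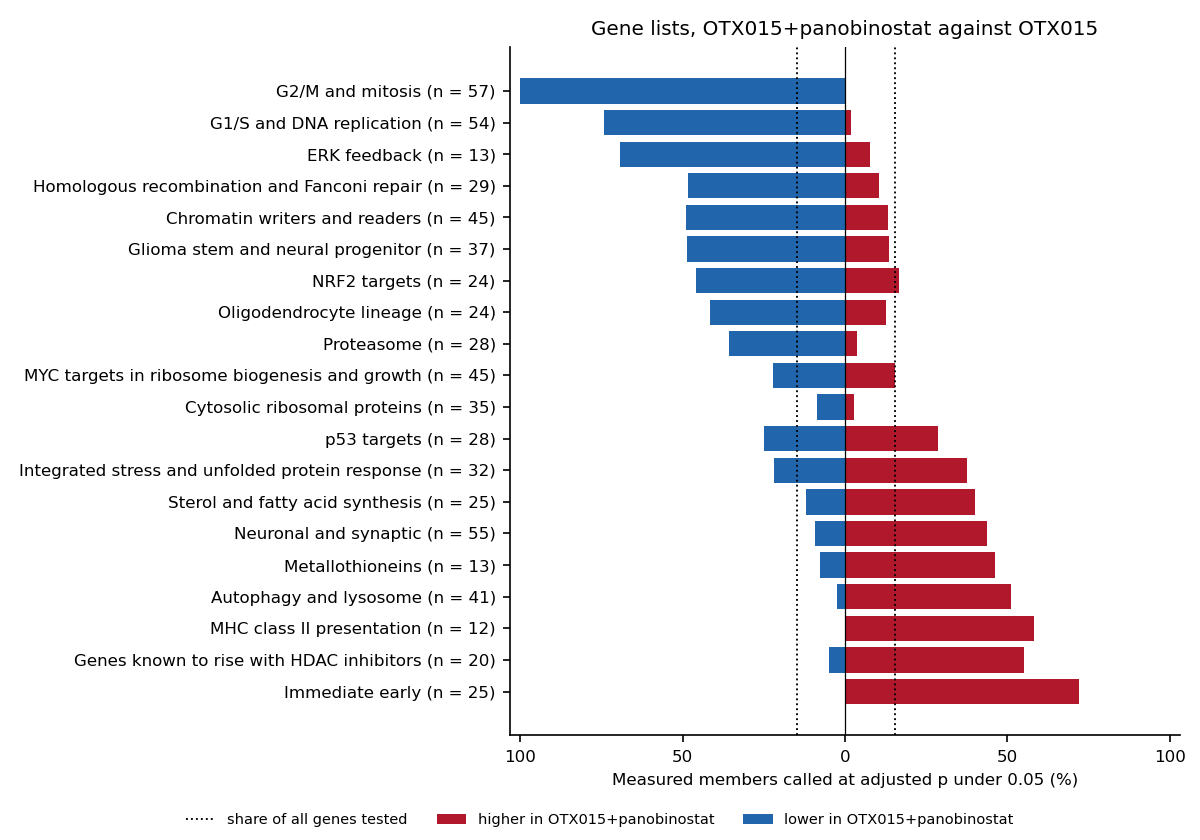
Share of the measured members of 20 gene lists (percent; n is the number measured) called lower (blue, left) or higher (red, right) in OTX015+panobinostat than in OTX015, with dotted lines at the 14.7% lower and 15.3% higher among all 22458 genes. G2/M genes reach 100% lower, and immediate early genes have no lower member.

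Among markers of the progenitor and oligodendrocyte lineage, more fell than rose, and many were not called. SOX2, the core stem cell transcription factor of these cells, had 6.85 and 6.78 in combination arrays, against 10.65 and 10.64 in OTX015 arrays, a change of -3.83 ± 0.12 (SE, adjusted p = 1.35e-06), or 14.2-fold lower. Of 37 glioma stem and neural progenitor genes, 18 fell, against 14.7% of all genes, 5 rose and 14 were not called, with a median change of -0.51. DLL1, a Notch ligand, fell by 3.68. The 5 that rose were L1CAM, ITGA6, SOX9, ID4 and VIM, at most 1.41, and this count was 3 without OTX015 replicate 2 or combination replicate 1. Of 24 oligodendrocyte lineage genes, 10 fell, 3 rose (BCAS1, MBP and MYRF) and 11 were not called. OLIG1, a lineage transcription factor, had 4.43 and 4.78 in combination arrays, against 8.06 and 8.24 in OTX015 arrays, a change of -3.55 ± 0.17 (SE, adjusted p = 3.53e-06). NKX2-2 and SOX10, which act with it, fell by 3.57 and 2.92. OLIG2 had 9.09 and 8.97 in combination arrays, against 9.17 and 9.53 in OTX015 arrays, a difference of -0.32 that was not called (adjusted p = 0.165) and was called with an intensity trend (adjusted p = 0.049). Notch genes split, with 8 of 25 lower and 7 higher. MAML2, a Notch coactivator, fell by 3.24, and 4 members were higher without OTX015 replicate 1 or combination replicate 1.

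Neuronal genes moved the other way: 24 of 55 rose, against 15.3% of all genes, and 5 fell, with a median change of 0.46. ELAVL3, a neuronal RNA-binding protein, had 8.17 and 8.01 in combination arrays, against 3.13 and 3.72 in OTX015 arrays, a change of 4.67 ± 0.20 (SE, adjusted p = 2.54e-06). STMN2, a microtubule regulator of growing neurites, had 6.78 and 6.35 in combination arrays, against 2.00 and 2.29 in OTX015 arrays, at least 11.6-fold higher (adjusted p = 3.67e-06). SYN1, a synaptic vesicle protein, had 8.93 and 8.94 in combination arrays, against 6.004 and 5.80 in OTX015 arrays, a change of 3.04 ± 0.17 (SE, adjusted p = 6.32e-06). In each of these genes every combination array was above every OTX015 array. The intermediate filament gene INA was at least 3.78-fold higher. The 5 that fell were GAD1, NLGN1, MAP2, MAP1B and MAPT, and 8 fell after centring. Among tubulins and microtubule regulators, TUBA1B fell to a level at least 4.68-fold lower and TUBA1C fell by 2.90. Their coding sequences are nearly identical, so the probe sets may share signal, and the list held 7 lower and 5 higher of 23, or 3 higher without OTX015 replicate 2 or either combination array. Astrocyte genes split evenly, 4 higher and 4 lower of 16: CLU, a secreted chaperone, rose by 2.82 and the lipoprotein gene APOE by 2.05, while the transcription factors NFIB and NFIA fell by 3.32 and 1.88. GFAP had 3.55 and 3.77 in combination arrays, against 3.65 and 3.53 in OTX015 arrays.

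Of 31 neurotransmitter receptor genes, 6 fell and 4 rose, shares near the 14.7% and 15.3% of all genes, and 14 were under background in both groups. GRIA4, an AMPA receptor subunit, had 2.25 and 2.88 in combination arrays, against 6.45 and 6.53 in OTX015 arrays, at least 11-fold lower (adjusted p = 4.49e-06), whereas CHRNA7, a nicotinic subunit, had 5.64 and 6.62 in combination arrays, against 3.71 and 2.44 in OTX015 arrays, a change of 3.05 ± 0.42 (SE, adjusted p = 0.000719). Of 39 axon guidance genes, 13 fell and 5 rose, or 3 without OTX015 replicate 2. The netrin receptor UNC5C was at least 9.36-fold lower and the semaphorin coreceptor NRP1 fell by 2.35, while SEMA4D rose by 2.76. Among 46 extracellular matrix and integrin genes, 14 rose and 14 fell, and the 4 largest changes were all falls. LAMA4, a laminin chain, had 4.0 and 4.27 in combination arrays, against 7.82 and 7.94 in OTX015 arrays, a change of -3.74 ± 0.15 (SE, adjusted p = 2.29e-06). The proteoglycan VCAN fell by 3.70, the metalloproteinase MMP16 by 3.43 and the integrin chain ITGB8 by 3.05. The count of higher matrix genes was 9 without OTX015 replicate 2.

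The lists of immediate early genes and of ERK feedback genes mostly moved in opposite directions, and ERK signalling itself was not measured. Of 25 immediate early genes, which respond to stimuli without new protein synthesis, 18 rose and 0 fell, with a median change of 1.49. IER3 had 8.86 and 8.09 in combination arrays, against 4.27 and 3.29 in OTX015 arrays, a change of 4.69 ± 0.36 (SE, adjusted p = 3.09e-05). ZFP36, which encodes an mRNA-destabilising protein, rose by 4.42, ARC, an activity-regulated neuronal gene, by 3.34, and the phosphatase gene DUSP1 by 3.19. EGR1, a zinc finger factor induced by ERK signalling, had 10.87 and 10.79 in combination arrays, against 9.27 and 8.46 in OTX015 arrays, a change of 1.97 ± 0.25 (SE, adjusted p = 0.000489). Of 13 ERK feedback genes, 9 fell and 1 rose (DUSP5, 2.58), with a median change of -2.12. The list holds phosphatases and adaptors that restrain the pathway, and also the ETV transcription factors, the receptor EPHA2 and PHLDA1. PHLDA1 had 5.597 and 5.58 in combination arrays, against 8.97 and 8.84 in OTX015 arrays, a change of -3.32 ± 0.14 (SE, adjusted p = 2.53e-06). DUSP6, the phosphatase of ERK, had 7.29 and 7.29 in combination arrays, against 10.20 and 9.90 in OTX015 arrays, a change of -2.76 ± 0.16 (SE, adjusted p = 8.28e-06). Neither gene had overlapping groups. SPRED1 and the transcription factor ETV1 fell by 2.79 and 2.75. Of 22 receptor tyrosine kinases, 5 fell, with EPHA3 (-2.35), DDR1 (-2.29) and NTRK2 (-1.69) the largest, and 4 rose, among them MET (at least 2.25-fold higher). After centring, or when either combination array was left out, 1 receptor rose, and 2 rose when either OTX015 array was left out.

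Genes known from other cells to rise with HDAC inhibitors rose here too in 11 of 20 cases, 1 fell (GADD45G) and 8 were not called. TFPI2, a protease inhibitor, had 6.47 and 5.89 in combination arrays, against 2.70 and 2.87 in OTX015 arrays, at least 8.88-fold higher (adjusted p = 3.49e-05). TXNIP, a thioredoxin-binding protein on that list, had 9.32 and 9.29 in combination arrays, against 9.60 and 9.84 in OTX015 arrays, a difference of -0.41 that was not called (adjusted p = 0.0802) and was called after centring (adjusted p = 0.0356) or with an intensity trend (0.0172). Metallothioneins, small cysteine-rich proteins that bind zinc and copper, gave some of the brightest signals. MT1X had 11.86 and 11.85 in combination arrays, against 7.78 and 7.55 in OTX015 arrays, a change of 4.19 ± 0.14 (SE, adjusted p = 1.35e-06). MT2A had 9.60 and 9.52 in combination arrays, against 5.38 and 5.62 in OTX015 arrays, a change of 4.06 ± 0.18 (SE, adjusted p = 2.54e-06). MT1F had 8.17 and 7.32 in combination arrays, against 3.36 and 3.07 in OTX015 arrays, a change of 4.53 ± 0.31 (SE, adjusted p = 1.94e-05). The 3 genes are very similar in sequence, so their probe sets may share signal. MTF1, the zinc-sensing factor that activates them, rose by 1.57. Of all 13 genes of the list, 6 rose and 1 fell (MT1M), and 5 were under background in both groups. MT1M lost its call when either OTX015 array or combination replicate 1 was left out.

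MTF1 binds the metal response element. The core of this element, TGCACNC or TGCGCNC on either strand, stood in 5 of 5 metallothionein promoters with a RefSeq entry, against 29.3% of 27305 promoters. The other measured metallothioneins had no such entry, and MTF1 and SLC30A1, which are on the list without being metallothioneins, were not counted. The last 150 bases before the start of MT1X (chr16:56682320-56682469, plus strand) and MT2A (chr16:56608434-56608583, plus strand) are printed because both genes rose strongly, with the core or its reverse complement in capitals, from RefSeq on GRCh38.p14:
MT1X: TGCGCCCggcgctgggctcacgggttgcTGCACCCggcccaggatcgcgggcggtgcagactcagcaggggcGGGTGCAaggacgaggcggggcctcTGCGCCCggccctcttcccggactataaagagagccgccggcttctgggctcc
MT2A: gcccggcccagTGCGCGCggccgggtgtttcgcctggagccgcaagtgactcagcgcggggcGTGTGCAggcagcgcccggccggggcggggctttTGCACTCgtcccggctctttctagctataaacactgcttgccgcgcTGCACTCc
Each window holds the core 4 times. The windows shown were picked among those that hold it, so its presence in them was fixed by the choice. MT4, whose change was only 0.56, also held the core, 1 time in its last 150 bases.

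Stress programs were selective. Besides DDIT3, TRIB3, a pseudokinase induced by CHOP, had 8.76 and 8.38 in combination arrays, against 5.26 and 5.21 in OTX015 arrays, a change of 3.33 ± 0.16 (SE, adjusted p = 3.36e-06), while ATF4, the upstream factor of the integrated stress response, rose by 0.68. The list as a whole had 12 of 32 genes higher and 7 lower, or 4 lower without OTX015 replicate 2. Of 27 heat shock proteins and chaperones, 5 rose and 8 fell. HSPA1A, the inducible HSP70, had 5.73 and 5.12 in combination arrays, against 1.03 and 2.52 in OTX015 arrays, at least 5.27-fold higher (adjusted p = 0.000379), and its cochaperone DNAJB1 rose by 3.08, while the small heat shock protein CRYAB was at least 3.2-fold lower. HSPA1A has a near-identical copy, HSPA1B. p53 targets split into 8 higher and 7 lower of 28, or 5 higher without combination replicate 1. The death receptor gene TNFRSF10B had 9.07 and 9.40 in combination arrays, against 6.43 and 6.55 in OTX015 arrays, a change of 2.74 ± 0.15 (SE, adjusted p = 6.66e-06), and SFN, which encodes 14-3-3 sigma, rose by 2.44. TP53I3, an oxidoreductase, fell by 2.09.

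Among antioxidant genes under NRF2, more fell than rose: 11 of 24 fell, 4 rose (SRXN1, GCLC, HMOX1 and SQSTM1) and 9 were not called. SLC7A11, the cystine transporter, had 6.61 and 6.15 in combination arrays, against 8.62 and 8.48 in OTX015 arrays, a change of -2.17 ± 0.17 (SE, adjusted p = 3.55e-05). GSR, glutathione reductase, had 8.48 and 8.41 in combination arrays, against 10.27 and 10.15 in OTX015 arrays, a change of -1.77 ± 0.14 (SE, adjusted p = 3.81e-05). OSGIN1, an oxidative stress gene, fell by 1.80. In these 3 genes and in NQO1, the OTX015 arrays were the highest of the 8.

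In the cell death machinery, MCL1, an anti-apoptotic BCL2 protein, rose by 1.23 and BCL2 was at least 1.86-fold lower, while the pro-apoptotic members BIK and BID changed by 1.67 and -1.53. BCL2L1, BCL2L11 and PMAIP1 had changes of 0.22, 0.35 and -0.57 that were not called (adjusted p = 0.299, 0.168 and 0.0855). PMAIP1 was called after centring (adjusted p = 0.0483) and in a fit of only the 4 arrays compared (0.0381). The 20 genes of the family held 4 higher and 4 lower members, 2 lower without OTX015 replicate 1 or combination replicate 2. CFLAR, an inhibitor of death receptor signalling, had 3.42 and 2.87 in combination arrays, against 5.67 and 5.78 in OTX015 arrays, a change of -2.58 ± 0.21 (SE, adjusted p = 4.28e-05), and the TNF receptor TNFRSF1A fell by 1.90. Of 22 death receptor and caspase genes, 5 fell and 3 rose, or 1 without combination replicate 1.

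Class II antigen presentation genes rose in 7 of 12 cases with no member lower, from low levels. HLA-DPA1 had 5.43 and 5.48 in combination arrays, against 3.41 and 3.57 in OTX015 arrays, a change of 1.97 ± 0.13 (SE, adjusted p = 1.52e-05). HLA-DRA had 4.06 and 3.55 in combination arrays, against 2.07 and 2.12 in OTX015 arrays, at least 1.71-fold higher (adjusted p = 0.000141). The OTX015 arrays of HLA-DRA were under background and those of HLA-DPA1 just above it. CIITA, the master activator of the class, had 3.10 and 3.19 in combination arrays, against 3.03 and 3.09 in OTX015 arrays, which was not called (adjusted p = 0.704). HLA genes are polymorphic and similar to each other, so array signals may not belong to 1 gene. Of 16 markers of microglia and macrophages, 13 were not called, with a median change of 0.11, and 3 rose, near the 15.3% of all genes: the integrin ITGAX (at least 22.7-fold higher), the lysosomal protein CD68 (4.09) and the receptor CSF1R (1.80). Their list summed to 1820 and 1590 on the linear scale in the combination, against 174 and 173 with OTX015. The defining markers PTPRC, AIF1, P2RY12 and CX3CR1 averaged 1.20, 1.93, 1.34 and 2.47 in the combination, all under background, and 10 of the 16 were under background in both groups. None of 12 lymphocyte markers was called, and of 13 endothelial markers 1 was, ERG (-0.39), which lost its call when each of the 4 arrays was left out in turn. Of 14 pericyte and fibroblast markers, 3 rose and 1 fell. The fall, ACTA2, was under background in all groups and lost its call without OTX015 replicate 2 or when either combination array was left out, and the rise of DES lost its call after centring or when replicate 2 of either compared group was left out.

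Class I genes split into 4 higher and 4 lower of 15. The peptidase ERAP1 (at least 1.74-fold lower), the chaperone TAPBP (-1.76) and the transporter TAP1 (-1.499) fell, while HLA-E rose by 1.20. The count of higher members was 2 without combination replicate 1. Of 28 interferon-stimulated genes, 8 rose and 3 fell, or 1 without OTX015 replicate 2 or combination replicate 1. IRF7, a regulator of interferon genes, had 7.69 and 7.35 in combination arrays, against 4.95 and 4.81 in OTX015 arrays, a change of 2.64 ± 0.17 (SE, adjusted p = 1.47e-05), and IRF9, a subunit of the interferon-activated complex ISGF3, and BST2, a tether of virus particles, rose, IRF9 by 1.80 and BST2 to a level at least 1.16-fold higher.

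Lysosome and autophagy genes rose broadly, 21 of 41 against 15.3% of all genes, with a median change of 0.59 and 1 lower (LAMP2, or 2 lower members without OTX015 replicate 1 and 3 after centring). ATG2A, a lipid transfer protein of the growing autophagosome, had 7.90 and 7.81 in combination arrays, against 6.18 and 5.95 in OTX015 arrays, a change of 1.79 ± 0.13 (SE, adjusted p = 2.76e-05), and the sialidase NEU1 rose by 1.44. Sterol and fatty acid genes held 10 higher and 3 lower of 25, or 5 lower after centring. SREBF1, the transcription factor of lipid synthesis, had 9.85 and 9.85 in combination arrays, against 7.60 and 7.61 in OTX015 arrays, a change of 2.24 ± 0.15 (SE, adjusted p = 1.68e-05), and HMGCS1 and INSIG1 of the sterol pathway rose by 2.22 and 1.96, while the elongase ELOVL6 fell by 2.60. Proteasome subunits fell in 10 of 28 cases, led by PSMB5 (-1.57), and 1 rose (ADRM1). Serine and folate enzymes had 8 of 19 lower, or 5 without OTX015 replicate 2, and 0 higher. PPARGC1A, the coactivator PGC1 alpha, had 4.98 and 5.05 in combination arrays, against 2.94 and 2.25 in OTX015 arrays, at least 3.96-fold higher (adjusted p = 8.04e-05). Of the 38 respiratory chain and PGC1 genes, 13 fell, but between 6 and 8 did when 1 of the 4 arrays was left out, and 2 rose. Glycolysis genes split 8 higher and 8 lower of 23, each 5 without OTX015 replicate 2, and 5 lower without combination replicate 2, and the hexokinase HK2 fell by 0.75.

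Chromatin genes other than the deacetylases fell in 22 of 45 cases and rose in 6, with 14 lower without OTX015 replicate 2 and 10 higher after quantile normalization. HMGB2, a chromatin protein of dividing cells, fell by 2.69, the histone methyltransferase SUV39H1 by 1.67 and the acetyltransferase KAT2B by 1.63. KDM6B, a demethylase of histone H3 lysine 27, had 8.96 and 8.90 in combination arrays, against 6.71 and 6.55 in OTX015 arrays, a change of 2.30 ± 0.16 (SE, adjusted p = 2.12e-05). Of 20 histone genes, 5 rose (H3C2, H2BC21, H4C4, H2BC5 and H3-3B) and 2 fell (H2AZ1 and H1-4). H2BC21 rose by 1.93, and H2AZ1 fell by 1.62. Histone genes have near-identical copies that arrays may not separate. Members named beyond the largest changes of a list, such as CIITA, PTPRC, RAD50 or SQSTM1, were chosen after their values were seen.

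The change made by panobinostat was then set beside the change it made without OTX015, panobinostat minus DMSO, which shares no array with it. That contrast called 8360 genes (37.2%), 4347 higher (19.4%) and 4013 lower (17.9%). Of the genes called against OTX015, 4527 (67.2%) were called in the same direction against DMSO, which was 54.2% of those called against DMSO. Across genes, the 2 changes correlated with Pearson's r of 0.726 and a Spearman rank correlation of 0.581, a description over genes that are not independent. The median absolute change was 0.28 with OTX015 and 0.34 without it. All 57 G2/M genes fell in both contrasts, with medians of -2.29 with OTX015 and -2.48 without it.

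The difference between the 2 changes was tested as an interaction, (combination minus OTX015) minus (panobinostat minus DMSO), and was called for 3086 genes (13.7%), 1419 higher (6.32%) and 1667 lower (7.42%). The count was 1883 without OTX015 replicate 1, 1631 without OTX015 replicate 2, 1686 without panobinostat replicate 1, 1793 without panobinostat replicate 2 and 1852 without combination replicate 1. Of the genes called against OTX015, 1758 (26.1%) also had a called interaction. The 1942 genes called against OTX015 and not against DMSO had it in 651 cases (33.5%), so for the others no difference between the contrasts was shown.

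**Figure D4:**
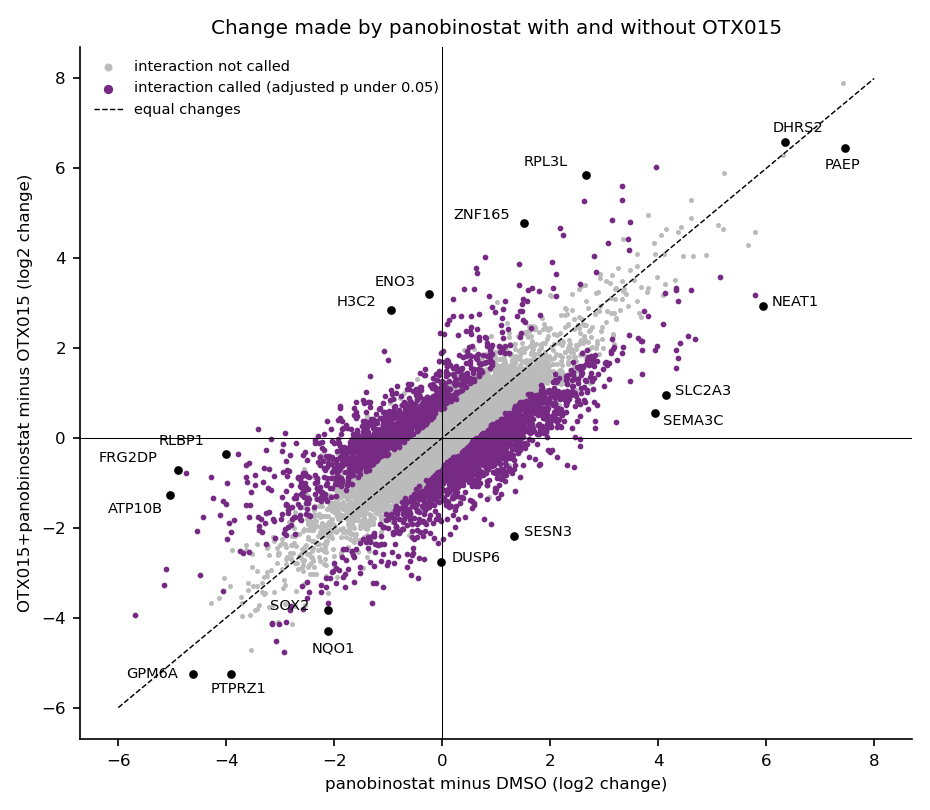
Each point is 1 of 22458 genes, with the panobinostat minus DMSO change on the horizontal axis and the OTX015+panobinostat minus OTX015 change on the vertical axis (log2); purple points have a called interaction and the dashed line marks equal changes. DHRS2 and PAEP lie far up on both axes, SLC2A3 and SEMA3C rose less with OTX015 present, SESN3 moved in opposite directions, and H3C2 was above background only in the combination.

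Among the 50 lists, NRF2 targets had the largest excess of interactions in 1 direction as a share of members. The interaction was lower for 17 of 24 and higher for 0, with a median of -1.05 against 0.06 over all genes. The lower count was 11 without OTX015 replicate 1 or panobinostat replicate 1. Without OTX015, panobinostat raised 11 of these genes and lowered 3. GSR had 9.76 and 9.49 in panobinostat arrays, against 9.28 and 9.15 in DMSO arrays, a rise of 0.42, and its interaction was -2.18 ± 0.20 (SE, adjusted p = 0.00104). NQO1 fell in both contrasts, by 2.12 without OTX015, with an interaction of -2.18 ± 0.24 (SE, adjusted p = 0.00166). OTX015 arrays of both genes were above DMSO arrays.

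ERK feedback genes also differed in 1 direction, with 7 of 13 interactions lower and 0 higher. DUSP6 had 8.06 and 7.82 in panobinostat arrays, against 8.07 and 7.83 in DMSO arrays, a difference of -0.01, and its interaction was -2.75 ± 0.23 (SE, adjusted p = 0.000886). SPRED1 and PHLDA1 fell by 0.90 and 1.10 without OTX015, with interactions of -1.89 and -2.22. Of 28 p53 targets, 11 interactions were lower and 2 higher, or 7 and 1 when either OTX015 array or panobinostat replicate 1 was left out. CDKN1A had 7.46 and 7.33 in panobinostat arrays, against 3.96 and 3.90 in DMSO arrays, a rise of 3.47, against its rise of 1.27 with OTX015, and its interaction was -2.21 ± 0.19 (SE, adjusted p = 0.000886). Its combination and panobinostat arrays lay at similar levels, and its OTX015 arrays lay above its DMSO arrays. EGR1 rose by 4.33 without OTX015, with an interaction of -2.36 (adjusted p = 0.0046), and TXNIP had an interaction of -2.02 (adjusted p = 0.00166).

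**Figure D5:**
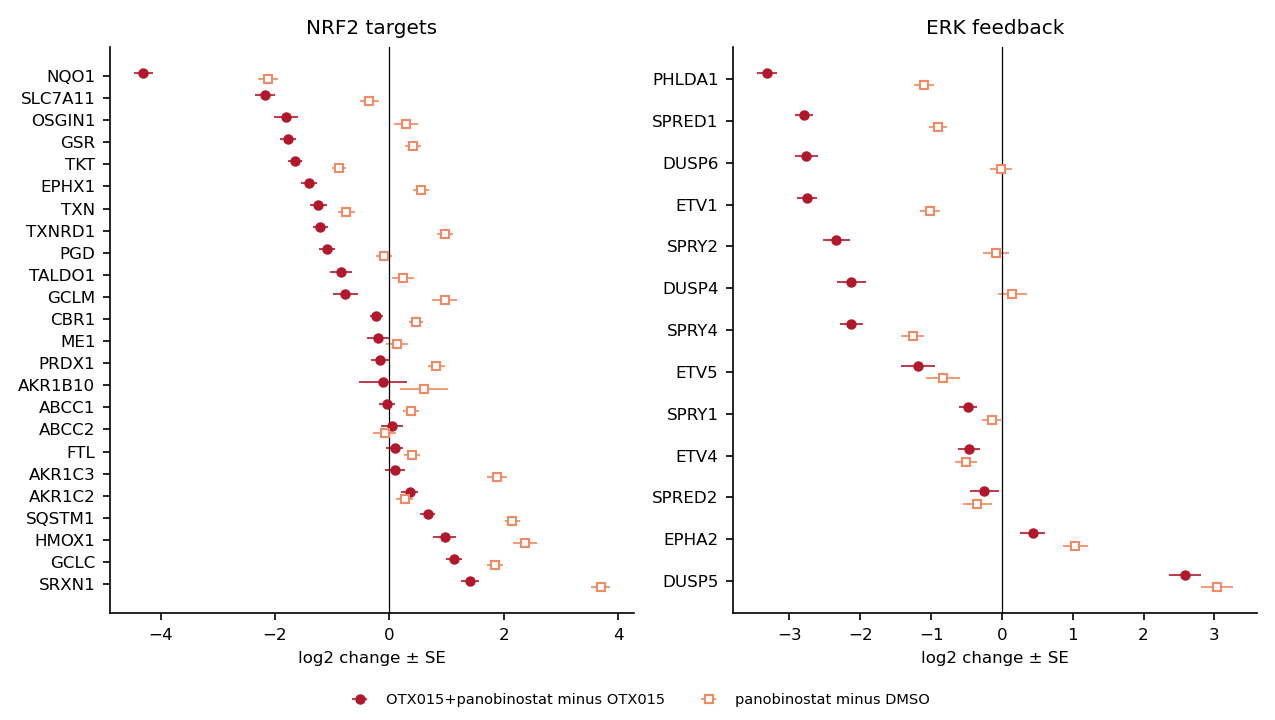
Change made by panobinostat (log2 ± SE from the fit, 2 arrays a group) on each measured NRF2 target and ERK feedback gene, with filled circles for OTX015+panobinostat minus OTX015 and open squares for panobinostat minus DMSO. GSR, TXNRD1 and GCLM are lower in the first contrast and higher in the second, and DUSP6 fell in the first and lies at 0 in the second.

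Other lists differed in smaller parts. Glioma stem genes had 13 lower and 5 higher interactions of 37, and SOX2, which fell by 2.11 without OTX015, had -1.72 ± 0.17 (SE, adjusted p = 0.00128). The lower count was 7 without either OTX015 array and 8 without either panobinostat array, and the higher count was 2 without OTX015 replicate 2 or either panobinostat array and 3 without OTX015 replicate 1, DMSO replicate 2 or combination replicate 1. MYC targets of ribosome biogenesis had 10 higher and 2 lower, and without OTX015 panobinostat lowered 29 of 45. That higher count was 5 or 6 without DMSO replicate 1, OTX015 replicate 1, or any panobinostat or combination array. MYC itself fell by 2.82 without OTX015, and its interaction of 0.27 was not called (adjusted p = 0.333). Autophagy and lysosome genes had 10 lower interactions, 4 without OTX015 replicate 2 and 6 without OTX015 replicate 1, DMSO replicate 2 or either panobinostat array. SOX10 had 4.16 and 3.91 in panobinostat arrays, against 9.06 and 9.26 in DMSO arrays, a fall of 5.12 that exceeded the fall with OTX015, and its interaction was 2.20 ± 0.29 (SE, adjusted p = 0.00301).

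Of the 10 genes with the lowest interaction, panobinostat raised 9 without OTX015, all but DUSP6. The interaction is made from the group means, so ranking by it favours such a pattern. SESN3, a stress-induced regulator of growth signalling, had 6.97 and 7.18 in combination arrays, against 9.14 and 9.38 in OTX015 arrays. Its levels were 8.71 and 8.80 in panobinostat arrays, against 7.48 and 7.38 in DMSO arrays, and the interaction was -3.51 ± 0.20 (SE, adjusted p = 0.000442). SESN3 fell with OTX015 present and rose without it. SEMA3C, a secreted semaphorin, rose by 0.56 with OTX015 and by 3.94 without it, although the first call was lost when either OTX015 array or combination replicate 2 was left out. SLC2A3, the glucose transporter GLUT3, rose by 0.96 with OTX015, a call lost without OTX015 replicate 2 (adjusted p = 0.0658), and by 4.15 without it. NEAT1, the architectural RNA of paraspeckles, had 6.86 and 7.42 in combination arrays, against 4.01 and 4.40 in OTX015 arrays, and 8.03 and 8.504 in panobinostat arrays, against 2.66 and 1.99 in DMSO arrays, with an interaction of -3.01 ± 0.40 (SE, adjusted p = 0.00312) whose size rests on DMSO arrays under background. The highest interactions were mostly of another kind. FRG2DP, CA14, ATP10B, RLBP1, NAV3 and ITIH6 had DMSO means above 7 and OTX015 means under 4, which the ranking also favours. RLBP1, a retinoid-binding protein, had 3.53 and 3.39 in combination arrays, against 3.74 and 3.88 in OTX015 arrays, and 4.28 and 4.32 in panobinostat arrays, against 8.20 and 8.42 in DMSO arrays. H3C2, a replication-dependent histone, had 4.32 and 5.03 in combination arrays, against 2.10 and 1.56 in OTX015 arrays, and 1.38 and 1.05 in panobinostat arrays, against 2.02 and 2.31 in DMSO arrays, so only the combination arrays were above background. ENO3, the muscle enolase, rose by 3.21 with OTX015, against a change of -0.25 without it. The zinc finger gene ZNF165 was at least 14.7-fold higher in the combination than with OTX015.

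In 265 genes the 2 contrasts were called in opposite directions, 105 higher with OTX015 and lower without it and 160 the other way. All 265 had a called interaction, which the opposite calls fixed in advance, because the interaction is the difference of the 2 changes. The count was 168 without OTX015 replicate 1, 136 without OTX015 replicate 2, 156 without panobinostat replicate 1 and 137 without combination replicate 1, and 9 genes passed with changes of at least 1 in both contrasts. JAG1, a Notch ligand, had 5.63 and 5.401 in combination arrays, against 7.57 and 7.05 in OTX015 arrays, and 6.82 and 6.58 in panobinostat arrays, against 6.14 and 5.70 in DMSO arrays, with an interaction of -2.57 ± 0.31 (SE, adjusted p = 0.00214). ITGB1, the common integrin beta chain, had 5.73 and 6.10 in combination arrays, against 7.11 and 7.10 in OTX015 arrays, and 7.13 and 7.22 in panobinostat arrays, against 5.81 and 5.84 in DMSO arrays, with an interaction of -2.54 ± 0.21 (SE, adjusted p = 0.000886). In both genes the combination arrays lay near the DMSO arrays. THOC6, a subunit of an mRNA export complex, had 8.67 and 8.84 in combination arrays, against 6.95 and 7.09 in OTX015 arrays, and 6.36 and 6.47 in panobinostat arrays, against 7.34 and 7.51 in DMSO arrays, with an interaction of 2.74 ± 0.19 (SE, adjusted p = 0.000671). ZFP36L2, an RNA-binding protein, rose by 1.38 with OTX015 and fell by 1.34 without it.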

How the data were processed

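Total RNA of the NCH644 line was labelled with biotin for single-colour arrays, per the labels' protocols, and the sources used here do not name the array model. The deposited values are log2 RMA levels that the authors made, per the submitters' processing notes, with affy 1.36.1 and R 2.15.1. RMA makes array distributions alike and compresses signals near background and saturation, so a change in total RNA per cell would not be visible. Of 23786 probe sets, 22458 had 1 gene symbol in the platform annotation, 0 had several and 1328 were unnamed; all 22458 were found in RefSeq, with 1 probe set per gene. Groups came from the sample titles, and 0 pairs of arrays held identical values.

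All 8 arrays entered 1 limma fit (3.58.1, R 4.3.3) with 4 group means, 4 residual degrees of freedom, lmFit, eBayes and two-sided tests. P-values were Benjamini-Hochberg adjusted over all genes, genes were called under 0.05, and low values were kept. The steps were tested on simulated data. Lists were counted without a test of the list; 50 lists held 1473 entries, 1355 of them measured. The members and lists were chosen with earlier results of these data known. Named genes were the 12 largest rises and falls with non-overlapping arrays, the 10 highest and lowest interactions, the 6 largest opposite changes each way, up to 4 called genes per list and a fixed set, leaving out uncharacterised loci and small RNAs; exceptions are stated. Alternatives were each array left out, an adjusted p under 0.01, a change of at least 1, array centring, quantile normalization, the replicate number as a block, array weights, robust moderation with an intensity trend, a fit of only the 4 arrays compared, a filter on the lowest 25% of genes, and all probe sets, named or not. The number of arrays limits the precision.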

Additional observations from a re-analysis of the deposited data

Results flagged for a closer look

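The change made by panobinostat differed with and without OTX015 for 3086 genes by the interaction test, and the genes with the largest such differences follow, with the interaction on the log2 scale. Among genes whose change was higher with OTX015 present, the interaction was 4.18 for FRG2DP, 3.98 for CA14, 3.79 for H3C2, 3.78 for ATP10B, 3.66 for RLBP1, 3.61 for ZHX2, 3.46 for ENO3, 3.43 for NAV3, 3.42 for ITIH6 and 3.25 for ZNF165. In 7 of these 10, FRG2DP, CA14, ATP10B, RLBP1, ZHX2, NAV3 and ITIH6, the DMSO arrays were the highest of the 4 groups and the OTX015 group mean was under 4. The ranking is made from these same group means and favours this pattern. Among genes called in opposite directions it was 3.03 for MRPL11, 2.74 for THOC6, 2.72 for ZFP36L2, 2.56 for ADGRG1 and 2.44 for RARG. The call of ADGRG1 against OTX015 was lost without OTX015 replicate 2 or combination replicate 1.

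Among genes whose change was lower with OTX015 present, the interaction was -3.51 for SESN3, -3.38 for SEMA3C, -3.19 for SLC2A3, -3.07 for CEMIP2, -3.01 for NEAT1, -2.91 for KDM7A, -2.86 for TMT1B, -2.83 for LIFR, -2.76 for ROPN1L and -2.75 for DUSP6. The opposite-direction genes JAG1 and ITGB1 had -2.57 and -2.54. The sizes for FRG2DP, CA14, ATP10B, ITIH6, ZHX2, ZNF165, H3C2 and NEAT1 rest on 1 or more group means under background, for H3C2 and ZHX2 on 3. In the data outside the named genes, 170 of 1328 probe sets without a gene symbol were higher in the combination than with OTX015 and 159 were lower, and they are not described further.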

How the results depend on the processing

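No called change of a named gene reversed its direction under the alternatives run. Centring moved the median change of all genes to -0.07, against 0.03 as deposited, and turned the majority of calls to lower, with 2705 higher and 3887 lower. Genes called against OTX015 fell to 4455 (2167 higher) at an adjusted p under 0.01 and to 2712 (1300 higher, 1412 lower) with a change of at least 1, and lay between 4879 and 5328 with an array left out (2424 to 2679 higher, 2455 to 2649 lower). Interactions fell to 1145 (499 higher, 646 lower) and 1786 (831 higher, 955 lower) under the same thresholds, and to between 1631 and 2546 (761 to 1144 higher, 870 to 1402 lower) with an array left out. Opposite calls fell to 78 and 9, and to between 136 and 222. Among the named genes, 3762 checks kept direction and call, 96 lost the call and 16 gained it. With the replicate number as a block, 6858 genes were called (3494 higher, 3364 lower), with 3172 interactions and 272 opposite calls, and PMAIP1 was called (adjusted p = 0.0173). Same-numbered arrays deviated together only weakly (r from 0.0467 to 0.118), so the numbers were not shown to pair the arrays. Signal over background limits low genes: 326 called genes were under background in both groups.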

Other observations

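The shares of called genes differed between bins of abundance. When genes were split into 5 equal bins by their DMSO level, 3.92%, 11.8%, 21.7%, 23.6% and 15.5% were higher in the combination than with OTX015, from the lowest to the highest bin, and 0.913%, 2.25%, 7.68%, 24.4% and 38.0% were lower. The lowest bin ended at a DMSO level of 2.02 and the next at 3.14, against a background level of 3.03. Genes under background had little room to be called lower, and this floor was not separated from abundance. By gene type, 17.5% of 17649 protein-coding genes were higher and 17.5% lower, while 8.82% of 2234 long noncoding RNA genes were higher and 4.61% lower. Of 315 snoRNA genes, 31 were higher (9.84%) and 8 lower (2.54%). Of 1097 microRNA genes, 46 were higher and 38 lower. How far the floor enters the shares by gene type was not tested.

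Several signalling lists had members with large changes. INHBA, which encodes a subunit of activin, had 6.52 and 5.94 in combination arrays, against 2.33 and 2.48 in OTX015 arrays, at least 9.2-fold higher (adjusted p = 3.26e-05) by the same rule on background. Of 32 TGF-beta and BMP genes, 12 fell and 7 rose, or 3 without OTX015 replicate 2 or combination replicate 2, and BMP7 fell by 2.21 while BMP4 rose by 1.69. Of 35 WNT genes, 10 fell and 4 rose, or 2 without OTX015 replicate 2; the receptors FZD3 and LRP5 fell by 2.66 and 1.87. Of 25 NF-kB genes, 3 rose and 3 fell, shares below the 15.3% and 14.7% of all genes, and 17 were under background in both groups. The subunit NFKB2 rose by 2.47 while NFKB1 fell by 1.14. Cancer-testis genes rose in 5 of 27 cases, near the 15.3% of all genes, and 20 were under background in both groups. GTSF1, a germline factor, had 5.99 and 6.31 in combination arrays, against 1.96 and 1.74 in OTX015 arrays. Of 31 mesenchymal glioblastoma genes, 10 rose and 6 fell, and the protease inhibitor TIMP1 and the galectin LGALS1 rose by 2.86 and 2.74. Of 38 voltage-gated and potassium channel genes, 11 rose, or 7 without OTX015 replicate 2 or combination replicate 2, and 3 fell, or 6 without combination replicate 1. The sodium channel subunit SCN3B rose by 2.78, and the calcium channel subunit CACNA2D1 fell by 2.60.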
